A study of Mus musculus with 8 samples.

Results

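The genes of glutathione conjugation, peroxide removal and glutathione synthesis were followed in liver of mice with and without *Smpd3* in hepatocytes. They were chosen by symbol: every numbered *Gsta*, *Gstk*, *Gstm*, *Gsto*, *Gstp*, *Gstt* and *Gstz* gene, every *Mgst* and *Gpx* gene, and *Gclc*, *Gclm*, *Gss*, *Gsr*, *Ggt1* and *Hpgds*. The rule found 39 of the 55416 listed genes. Of these 39, 34 were tested because 4 or more of the 8 libraries gave them 1 TPM or more, and 5 were not. TPM is a measure of transcript abundance corrected for length and scaled to the library.

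RNA sequencing was done on 8 mouse liver samples, all from animals fed the HFMCD diet for 9 weeks, which the study used to induce steatohepatitis. The 4 controls, called FLOX by the submitters, were negative for the albumin-driven Cre recombinase (Alb-cre-). The 4 knockouts, called HKO, were positive for it (Alb-cre+), so that Cre is expressed in hepatocytes and removes the floxed *Smpd3* there. Whether all other liver cells keep the gene is not shown by these whole-tissue samples. Because the controls lack Cre, an effect of Cre and an effect of losing *Smpd3* cannot be told apart, and no group on another diet was analysed here. The labels give no age or sex, and it is not stated that the samples are different animals; p-values here reflect only how much these samples vary, which may be technical.

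Glutathione is a tripeptide of glutamate, cysteine and glycine and the main soluble thiol of the liver. Glutamate-cysteine ligase makes its first bond and sets the rate of synthesis, and glutathione synthetase adds the glycine. The glutathione transferases join the tripeptide to electrophiles such as drug metabolites and the aldehydes of lipid peroxidation, and the peroxidases use it to reduce hydrogen peroxide and lipid peroxides. Many of these genes are known targets of the transcription factor NRF2, which binds antioxidant response elements.

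The targeted gene *Smpd3* (ENSMUSG00000031906), which encodes neutral sphingomyelinase 2, checks the labels. It stood at 8.69, 10.72, 12.54 and 6.38 TPM across floxed controls 1 to 4, against 1.17, 3.03, 1.27 and 2.06 TPM across knockouts 1 to 4. Knockouts averaged 19.6% of the controls (log2 fold change -1.89 ± 0.24 SE; limma adjusted p = 0.0300). Leaving out floxed control 1 or 2, or knockout 1, 3 or 4, took the adjusted p above 0.05 (0.0505 to 0.0874), and the log2 fold change then lay between -1.93 and -1.77. The libraries held 994563 to 995449 TPM in sum, and the table carries no read counts, so depth is unknown. Hepatocyte markers were abundant in all libraries: 8 genes, *Alb* among them, summed to 67265 to 80209 TPM across the controls, against 60328 to 68184 TPM across the knockouts. Markers of kidney and pancreas (*Umod*, *Lrp2*, *Cpa1*, *Prss2*) summed to 0.02 TPM at most. Floxed control 4 stood apart from the other libraries, with 12115 genes at 1 TPM or more against 12474 to 12890 and with 8.92% of its TPM in mitochondrially encoded genes against 6.72% to 8.04%.

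No glutathione gene passed the threshold of an adjusted p of 0.05 in the comparison of knockout with control by limma, where 13 of 12710 genes did (0.102% of all genes tested; 0.0472% were higher and 0.0551% lower). The smallest adjusted p among the 34 tested members was 0.134, for *Gclc*. At an unadjusted p under 0.05, 9 members had higher values in the knockout (26.5% of 34, against 5.57% of all genes tested) and 0 had lower values (2.45% of all genes, and 8.02% in either direction). These 9 were *Gclc*, *Mgst3*, *Gstm3*, *Gstm6*, *Gsta4*, *Gsta3*, *Gstm1*, *Gstm2* and *Gstk1*. In TPM as deposited, every knockout library lay above every control library in 5 of the 34 (14.7%, against 3.29% of all genes tested), and in 0 every knockout lay below (1.46%). The median log2 fold change (knockout minus control, computed from log2(TPM + 1), so that changes of low genes appear too small) was 0.14 over the 34 members and 0.05 over all genes tested. Markers of other cells also differed at an unadjusted p under 0.05: the erythroid genes *Hba-a1* and *Hbb-bs* were higher, with 3 erythroid markers summing to 369 to 584 TPM in controls and 478 to 932 TPM in knockouts. The third, *Alas2*, went the other way (50.5 ± 11.1 TPM in controls, 42.8 ± 4.27 TPM in knockouts, SD), and the groups of all 3 overlapped. The Kupffer cell receptor gene *Marco* was lower without overlap, at 17.9 ± 1.52 TPM in controls and 9.62 ± 1.73 TPM in knockouts (SD, n = 4 per group). It was the 1 of 9 Kupffer cell and macrophage markers past this threshold, and the groups of the others overlapped. Among the other lists, 1 of 7 endothelial and 1 of 8 hepatocyte markers were lower, and 1 of 5 T and NK cell markers was higher. Of the 8 pericentral markers 1 was higher and 1 lower. At the same unadjusted p, 5.57% of all genes tested were higher and 2.45% lower. None of the marker genes passed an adjusted p of 0.05 in limma, and the part of these cells in the members' values was not tested. Of the 34 members, 24 had a log2 fold change above 0 (70.6%, against 64.6% of all genes), and after median-of-ratios scaling 20 had (against 50% of all genes).

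The count varied with the libraries used and the scaling. Without floxed control 4 it was 7 higher and 0 lower (3.79% of all genes higher), with *Gstm2* and *Gstk1* no longer among them. The same 2 genes dropped out without floxed control 1, knockout 1 or knockout 3. This left 7 higher in each of these fits (5.52%, 8.76% and 3.96% of all genes higher). Without knockout 3, *Mgst2* was also lower. Without floxed control 2 the count was 10 higher and 1 lower (5.65% of all genes higher), with *Gsta2* and *Gstm7* added, *Gstk1* lost and *Gstp2* lower. Without knockout 4 it was also 10 higher and 1 lower (3.98% of all genes higher), with *Gsta2* and *Gstt1* added, *Gstk1* lost and *Gstp2* lower. After median-of-ratios scaling, which brought the median log2 fold change of all genes to 0.00, it was 5 higher and 1 lower (4.56% of all genes higher). The 5 were *Gclc*, *Mgst3*, *Gstm3*, *Gstm6* and *Gsta4*, all among the 9, and the lower gene was *Mgst2*. This scaling divides each library by a factor, 0.84 for floxed control 4 and 0.91 to 1.09 for the others. It therefore raises floxed control 4 the most. Statements that groups of TPM values do or do not overlap are for TPM as deposited. They were not repeated after this scaling and may differ there. *Gclc*, *Mgst3*, *Gstm3*, *Gstm6* and *Gsta4* kept an unadjusted p under 0.05 in each of the 18 alternative fits, and none of the 34 reached an adjusted p under 0.05 in any of them. Fewer cells of a type and less RNA per cell cannot be told apart in these whole-tissue libraries.

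**Figure D1:**
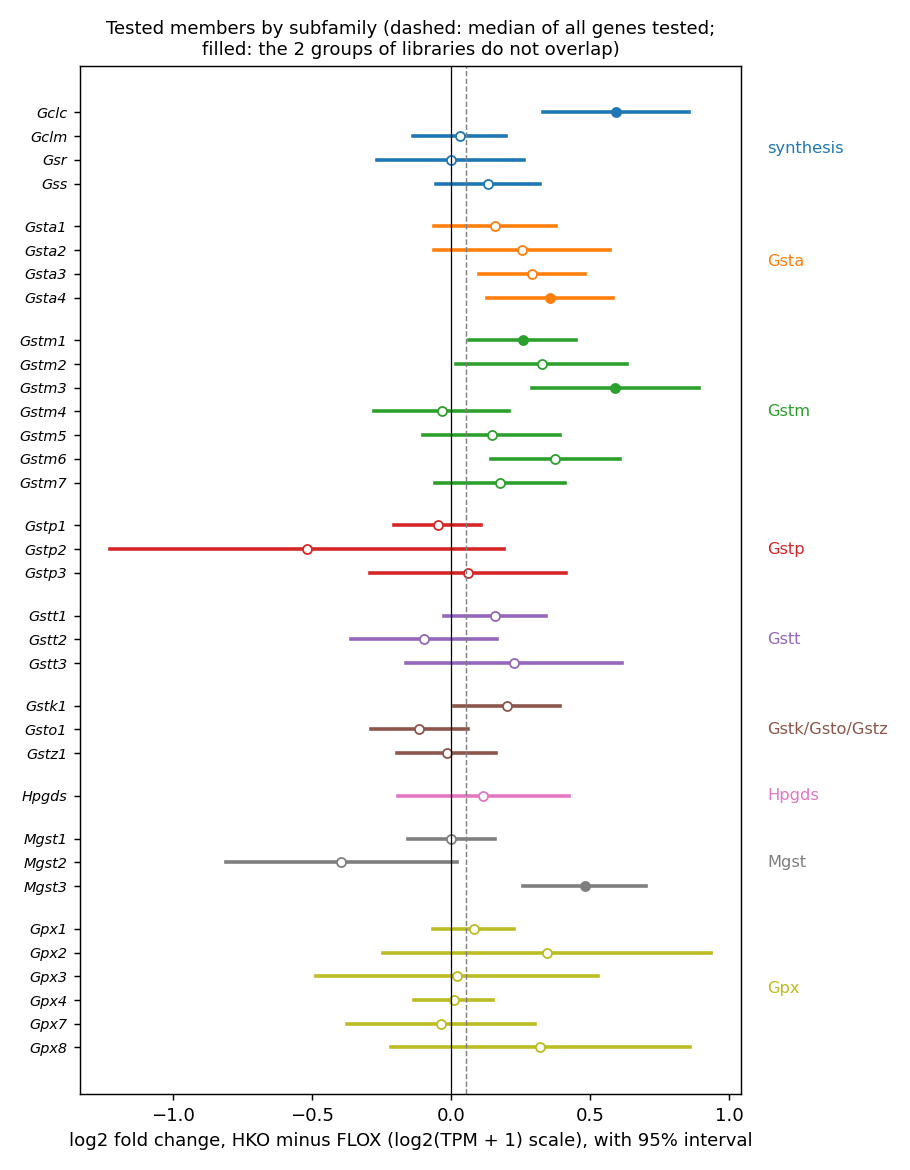
Log2 fold change (knockout minus floxed control, log2(TPM + 1) scale) with its 95% interval for each of the 34 tested members, grouped by subfamily; the dashed line marks the median of all genes tested (0.05), and filled points mark members whose groups of libraries do not overlap. The points of *Gclc*, *Gsta4*, *Gstm1*, *Gstm3* and *Mgst3* are filled and lie between 0.26 and 0.59, while the intervals of all *Gstp* and *Gpx* genes include 0.

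The promoters were searched for the core of the antioxidant response element, TGACNNNGC, on both strands, in the 300 bases from 250 before to 50 after each annotated start (RefSeq, build GRCm38.p6). Promoters of 35 of the 39 members were in the table, and 6 of the 35 genes (17.1%) held a match in at least 1 promoter, against 14.0% of the 27025 genes in the table. The 6 genes were *Gclm*, *Ggt1*, *Gsta3*, *Gstm5*, *Gstm7* and *Mgst1*. Of the 9 members with an unadjusted p under 0.05, the promoters of *Gstm1*, *Gstm2*, *Gstm3*, *Gstm6*, *Gstk1* and *Mgst3* had no match in this window, *Gsta3* had one, and *Gclc* and *Gsta4* were not searched. A match is a description of letters, not of binding. Windows that overlap an annotated exon are not printed, among them those of *Gstm5*, *Gstm7* and *Mgst1*. A window of *Ggt1*, which was not tested, is also left out. The windows of *Gsta3* and *Gclm* are shown, genes with log2 fold changes of 0.29 and 0.03. The capitals mark the 9 bases of the match, read 5′ to 3′ on the strand of the gene. In *Gclm* the core lies on the opposite strand. Both genes are on the plus strand, at chr1:21240439-21240497 and chr3:122245398-122245456, and the matches begin 121 and 134 bases before the start.
Gsta3: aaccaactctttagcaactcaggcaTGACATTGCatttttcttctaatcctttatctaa
Gclm: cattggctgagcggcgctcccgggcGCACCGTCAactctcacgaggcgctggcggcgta

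Among the genes of synthesis and recycling, the catalytic subunit of glutamate-cysteine ligase was the 1 gene whose groups did not overlap. *Gclc* (ENSMUSG00000032350), the catalytic subunit, stood at 111, 115, 92.5 and 83.9 TPM across floxed controls 1 to 4, against 139, 171, 138 and 158 TPM across knockouts 1 to 4. All 4 knockouts lay above all 4 controls. The means were 101 ± 14.8 and 152 ± 15.9 TPM (SD, n = 4 per group), a level of 151% (log2 fold change 0.59 ± 0.12 SE; limma adjusted p = 0.134). For *Gclc* the exact permutation p (2-sided) was 0.0286, which is the lowest value possible among 70 ways to divide the libraries. Any gene whose groups do not overlap has this value, so it restates the separation and adds no further support. *Gsta4*, *Gstm1*, *Gstm3* and *Mgst3* have it too. Among all genes tested, 3.29% were higher and 1.46% lower without overlap. *Gclm* (ENSMUSG00000028124), the modifier subunit that raises the activity of the catalytic one, stood at 139, 142, 150.2 and 140.5 TPM across the controls, against 160.5, 145, 143 and 136 TPM across the knockouts. Its groups overlapped throughout, and the 95% interval of its log2 fold change ran from -0.14 to 0.20. The ratio of *Gclc* to *Gclm* TPM, which no scaling of a library can change, was 0.80, 0.81, 0.62 and 0.60 in the controls and 0.87, 1.18, 0.97 and 1.16 in the knockouts. This ratio was chosen after its values were seen and was not tested.

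*Gss*, the synthetase that completes the tripeptide, stood at 121 ± 5.37 TPM across the controls, against 133 ± 12.4 TPM across the knockouts (SD, n = 4 per group; 95% interval of the log2 fold change -0.06 to 0.32). *Gsr*, the reductase that returns oxidised glutathione to the reduced form, stood at 43.1 ± 4.68 and 43.2 ± 5.87 TPM (interval -0.27 to 0.26). Both had overlapping groups. *Ggt1*, the gamma-glutamyl transferase that degrades extracellular glutathione, was between 0.03 and 0.83 TPM and was not tested. The summed TPM of the 5 synthesis genes, as deposited, was 376 to 425 in the controls and 446 to 515 in the knockouts, without overlap. This sum was not recomputed after median-of-ratios scaling, which raises floxed control 4, the lowest library here, the most. The median log2 fold change of the 4 tested genes was 0.08.

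In the alpha class (*Gsta*), whose enzymes handle lipid peroxides and their aldehydes, all 4 genes had a log2 fold change above 0, with a median of 0.27. *Gsta4* (ENSMUSG00000032348), the form that conjugates 4-hydroxynonenal, measured 108, 106, 90.2 and 87.4 TPM across floxed controls 1 to 4. In knockouts 1 to 4 it stood at 130.5, 135, 127 and 108.2 TPM. Knockout 4 lay just above floxed control 1, and the other knockouts were clear of the controls. The log2 fold change of *Gsta4* was 0.35 ± 0.10 (SE; adjusted p = 0.297 in limma). *Gsta3* (ENSMUSG00000025934), the most abundant alpha gene, stood at 1035, 980.2, 846 and 860 TPM across the controls, against 1129, 1027, 1211 and 1172 TPM across the knockouts. Only knockout 2 lay below the highest control. The log2 fold change of *Gsta3* was 0.29 ± 0.09 (SE; adjusted p = 0.311).

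*Gsta2* (ENSMUSG00000057933) stood at 93.8, 111, 94.1 and 78.2 TPM across the controls, against 126, 123, 119 and 84.8 TPM across the knockouts. Knockout 4 lay within the controls, and the log2 fold change was 0.25 ± 0.14 (SE; adjusted p = 0.731 in limma). *Gsta1* stood at 121 ± 9.62 and 135 ± 15.5 TPM (SD, 4 libraries per group), a log2 fold change of 0.16. Both genes share sequence with others. Of all 50-base stretches in the annotated transcripts of *Gsta1*, 89.7% occurred in another gene, 82.9% in the predicted gene *Gm3776* and 44.6% in *Gsta2*. For *Gsta2* the share was 47.4%, so reads could be split between these copies and both values are uncertain. Summed over *Gsta1*, *Gsta2*, *Gm3776* and *Gm10639*, TPM was 242 to 309 for controls and 253 to 338 for knockouts, with overlap. For *Gsta3* and *Gsta4* 0 of the 50-base stretches occurred elsewhere.

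**Figure D2:**
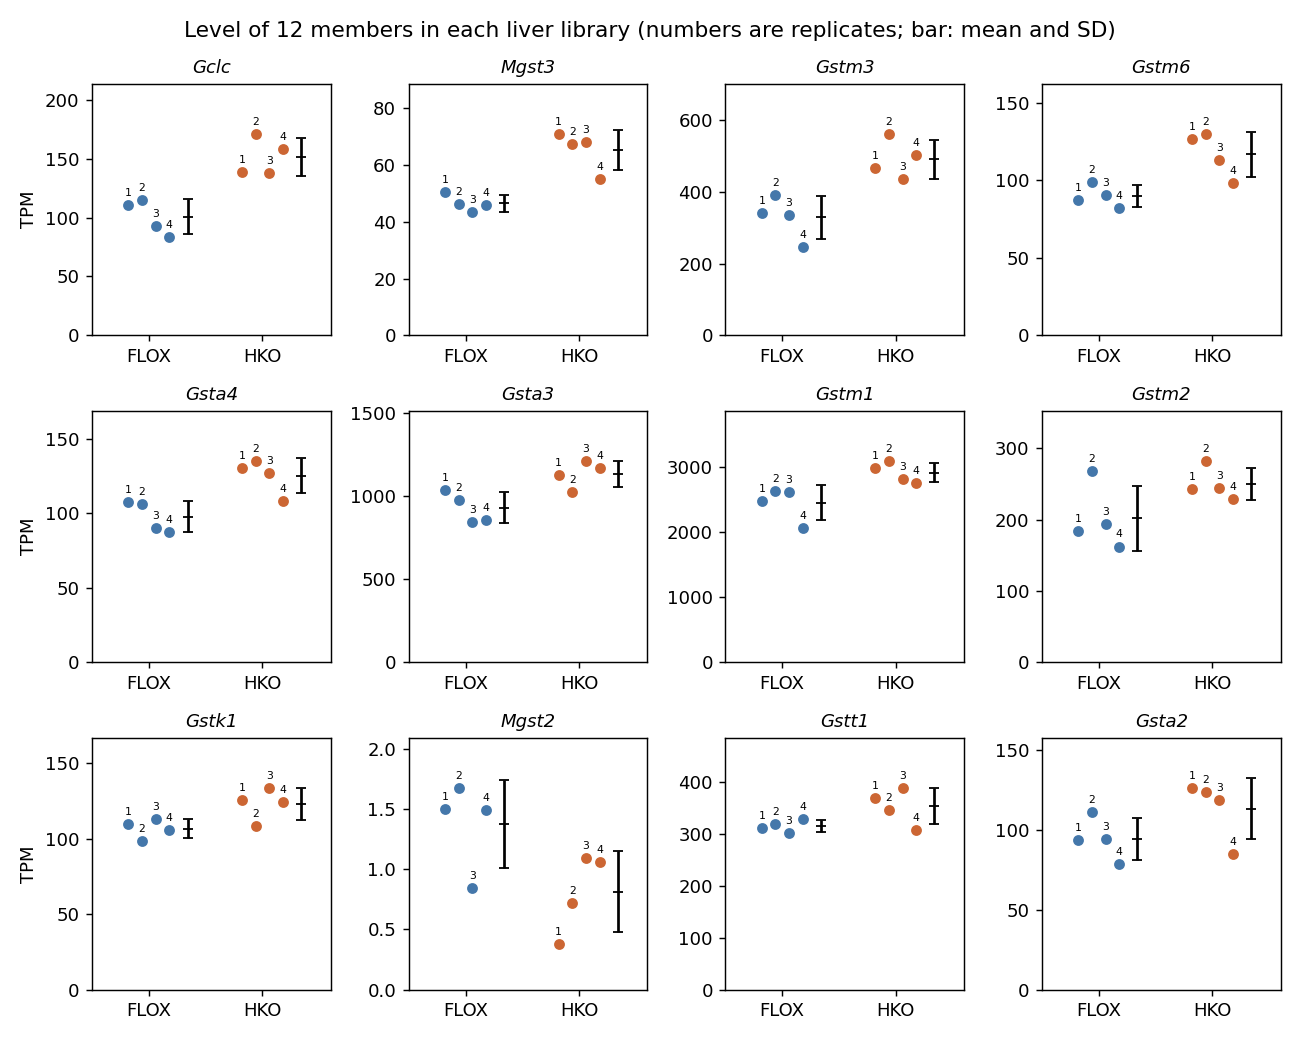
TPM of the 12 members with the smallest unadjusted p in each library, with floxed controls (FLOX) and knockouts (HKO) on the horizontal axis, 1 point per library numbered by replicate, and a bar for the mean and SD of each group; each panel has its own vertical axis from 0. The 4 knockouts lie above all 4 controls in *Gclc*, *Mgst3*, *Gstm3*, *Gsta4* and *Gstm1*, and in *Mgst2*, at 1.67 TPM or less, 3 controls lie above all knockouts.

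The mu class (*Gstm*), a cluster of neighbouring genes on 1 chromosome whose products conjugate a broad range of electrophiles, held 4 of the 9 members with an unadjusted p under 0.05. Of its 7 genes, 6 had a log2 fold change above 0 and the median was 0.26. *Gstm3* (ENSMUSG00000004038) stood at 341, 392, 336 and 246 TPM across floxed controls 1 to 4, against 465, 561, 435 and 501 TPM across knockouts 1 to 4. The groups did not overlap, and floxed control 4 was the lowest library. The average of the knockouts was 149% of that of the controls (log2 fold change 0.59 ± 0.14 SE; limma adjusted p = 0.192), and without floxed control 4 the log2 fold change was 0.46. *Gstm1* (ENSMUSG00000058135), the most abundant transferase of the mu class, stood at 2477, 2626, 2615 and 2056 TPM in the controls. In the knockouts it stood at 2984, 3083, 2814 and 2752 TPM, again above every control. The log2 fold change of *Gstm1* was 0.26 ± 0.09 (SE; adjusted p = 0.422) and was 0.18 without floxed control 4.

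*Gstm6* (ENSMUSG00000068762) stood at 87.6, 98.9, 90.6 and 82.0 TPM across the controls, against 127, 129.99, 113 and 98.1 TPM across the knockouts. Knockout 4 lay just below floxed control 2, and the log2 fold change was 0.37 ± 0.10 (SE; adjusted p = 0.281 in limma). *Gstm2* (ENSMUSG00000040562) stood at 185, 268, 193 and 162 TPM across the controls, against 243, 282, 244 and 229 TPM across the knockouts. Floxed control 2 lay within the knockouts, and the other controls lay below them (log2 fold change 0.32 ± 0.14 SE; limma adjusted p = 0.602). The remaining mu genes had log2 fold changes of 0.18 (*Gstm7*), 0.15 (*Gstm5*) and -0.04 (*Gstm4*), and their groups overlapped. *Gstm4*, at 48.8 ± 5.32 TPM across the controls, against 47.6 ± 5.19 TPM across the knockouts (SD, n = 4 per group), was the mu gene with a value below 0. The ratio of *Gstm3* to *Gstm4* TPM was 5.81 to 7.13 in the controls and 9.09 to 11.8 in the knockouts, a ratio chosen after its values were seen and not tested. A ratio of *Gsta3* to *Gstp1* overlapped (0.35 to 0.47 in the controls, 0.44 to 0.59 in the knockouts). That of *Mgst3* to *Mgst1* did not (0.0094 to 0.011 in the controls, 0.012 to 0.015 in the knockouts), but the groups of *Mgst3* alone did not overlap either. Neither of these ratios was tested. Shared 50-base stretches made up 28.8% of *Gstm3*, 19.9% of *Gstm1*, 9.74% of *Gstm6* and 8.30% of *Gstm2*, so part of each value may belong to a copy, and 0 of *Gstm4*.

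The 3 pi class genes (*Gstp*) had overlapping groups. *Gstp1* (ENSMUSG00000060803), the abundant pi gene, stood at 2202, 2070, 2385 and 2160 TPM across floxed controls 1 to 4, against 2083, 2335, 2055 and 2054 TPM across knockouts 1 to 4. The 95% interval of its log2 fold change ran from -0.20 to 0.11. *Gstp2* stood at 20.5 ± 9.04 and 13.7 ± 5.51 TPM (SD, n = 4 per group; interval -1.23 to 0.19) and *Gstp3* at 60.8 ± 14.2 and 62.9 ± 9.48 TPM (interval -0.29 to 0.41). *Gstp1* and *Gstp2* are close copies that shared 51.0% of the 50-base stretches of *Gstp1*, and *Gstp2* is therefore uncertain. Their sum was 2081 to 2418 TPM across the controls, against 2068 to 2346 TPM across the knockouts.

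In the theta class (*Gstt*) 3 of 4 genes were tested. *Gstt1* (ENSMUSG00000001663), which acts on small halogenated compounds, stood at 312, 320, 303 and 329 TPM across the controls, against 370, 347, 389 and 308 TPM across the knockouts. Knockouts 1 to 3 lay above the controls and knockout 4 among them (log2 fold change 0.16 ± 0.08 SE; limma adjusted p = 0.697). *Gstt2* stood at 100 ± 9.32 and 94.2 ± 13.9 TPM and *Gstt3* at 13.3 ± 2.85 and 15.6 ± 2.77 TPM (SD, n = 4 per group), with overlapping groups. *Gstt4* was at 0.14 TPM or less.

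The kappa, omega and zeta classes were measured by 1 expressed gene each. *Gstk1* (ENSMUSG00000029864), the transferase of mitochondria and peroxisomes, stood at 109.8, 98.1, 113 and 105 TPM across the controls, against 125, 108, 133 and 124 TPM across the knockouts. Knockout 2 lay within the controls (log2 fold change 0.20 ± 0.09 SE; limma adjusted p = 0.606). *Gsto1*, an omega enzyme with thiol transferase activity, stood at 107 ± 4.34 and 99.2 ± 6.88 TPM (SD, n = 4 per group; 95% interval of the log2 fold change -0.29 to 0.06). *Gstz1* (ENSMUSG00000021033), which isomerises maleylacetoacetate in tyrosine breakdown, stood at 618, 619, 547 and 534 TPM across the controls, against 522, 562, 613 and 594 TPM across the knockouts, fully overlapping. *Gsto2* was at 0.25 TPM or less. *Hpgds* (ENSMUSG00000029919), the sigma-class prostaglandin D synthase found in mast cells and macrophages, stood at 4.11, 3.27, 3.57 and 2.90 TPM across the controls, against 3.57, 4.24, 4.07 and 3.40 TPM across the knockouts. Of 4 mast cell markers, *Fcer1a* and *Mcpt4* were listed at 0 in every library *Cpa3* did not exceed 0.05 TPM, and *Kit*, the 1 that was tested, stood at 0.83 to 1.76 TPM with overlapping groups. The 9 Kupffer cell and macrophage markers summed to 472 to 936 TPM across the controls, against 593 to 943 TPM across the knockouts, and their part in the value of *Hpgds* was not tested.

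The microsomal transferases (*Mgst*), membrane enzymes with transferase and peroxidase activity, had unlike values. *Mgst3* (ENSMUSG00000026688) stood at 50.5, 46.2, 43.5 and 45.9 TPM across floxed controls 1 to 4, against 71.0, 67.5, 68.2 and 55.2 TPM across knockouts 1 to 4. Every knockout lay above every control, with knockout 4 the closest to them. The average of the knockouts was 141% of that of the controls (log2 fold change 0.48 ± 0.10 SE; limma adjusted p = 0.150). *Mgst1* (ENSMUSG00000008540), the most abundant of the 39 genes with 24.8% of their TPM, stood at 5141, 4214, 4595 and 4888 TPM across the controls, against 4788, 4672, 4589 and 4727 TPM across the knockouts. The 4 knockouts lay inside the range of the controls, and the 95% interval of the log2 fold change ran from -0.16 to 0.16. *Mgst2* (ENSMUSG00000074604), which can also make leukotriene C4, was near the threshold for testing, at 1.5, 1.67, 0.84 and 1.49 TPM across the controls, against 0.38, 0.72, 1.09 and 1.06 TPM across the knockouts. Floxed control 3 lay among the knockouts (log2 fold change -0.40 ± 0.19 SE; limma adjusted p = 0.652).

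**Figure D3:**
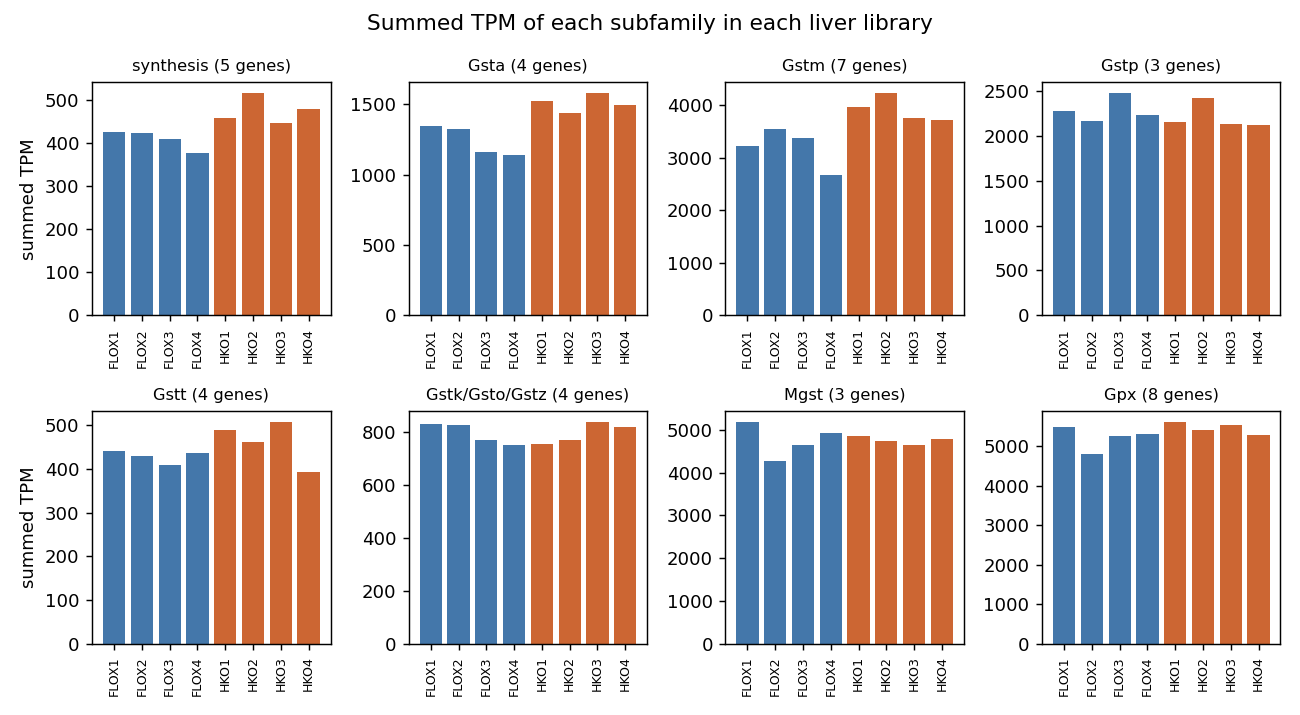
Summed TPM of each subfamily (vertical axis, from 0, scaled per panel) in each of the 4 floxed control (FLOX) and 4 knockout (HKO) libraries, 1 bar per library. The knockout bars stand above all control bars for synthesis (446 to 515 against 376 to 425), *Gsta* (1441 to 1577 against 1142 to 1346) and *Gstm* (3717 to 4223 against 2669 to 3544), and overlap in the other panels. The sums are of TPM as deposited and were not recomputed after median-of-ratios scaling, which raises floxed control 4 the most. *Gsta3*, whose own groups overlapped, made up most of the *Gsta* sum.

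The peroxidases (*Gpx*) were the subfamily with the most TPM and gave 0 members with an unadjusted p under 0.05. Of the 8 genes, *Gpx1*, *Gpx2*, *Gpx3* and *Gpx4* are annotated with a selenocysteine and *Gpx5*, *Gpx6*, *Gpx7* and *Gpx8* are not. *Gpx1* (ENSMUSG00000063856), the cytosolic enzyme that reduces hydrogen peroxide, stood at 4620, 3984, 4463 and 4532 TPM across the controls, against 4810, 4532, 4740 and 4501 TPM across the knockouts. The groups overlapped, and the 95% interval of the log2 fold change ran from -0.07 to 0.23. *Gpx4*, which reduces lipid peroxides inside membranes and restrains ferroptosis, stood at 761 ± 34.2 and 766 ± 32.6 TPM (SD, n = 4 per group). Its interval was -0.13 to 0.15. *Gpx4* shared 51.4% of its 50-base stretches with the pseudogene *Gpx4-ps2*. The groups of the other tested forms overlapped as well. *Gpx3*, a plasma enzyme, stood at 32.1 ± 7.69 and 32.7 ± 8.78 TPM, and *Gpx7* of the endoplasmic reticulum at 9.69 ± 1.19 and 9.49 ± 1.88 TPM. *Gpx8*, its relative, stood at 3.26 ± 1.00 and 4.35 ± 1.58 TPM and *Gpx2*, an epithelial form, at 0.89 ± 0.38 and 1.48 ± 1.01 TPM. For *Gpx2*, *Gpx3* and *Gpx8* knockout 2 was the highest and floxed control 4 the lowest library. Over all genes tested, floxed control 4 was the lowest library for 45.04% and knockout 2 the highest for 18.5%. The same 2 libraries were the highest and the second lowest in the summed TPM of cholangiocyte markers (641 TPM in knockout 2, 249 TPM in floxed control 4, 181 to 470 TPM in the others). They were the highest and the lowest in the summed TPM of stellate cell and fibroblast markers (648 and 262 TPM, 452 to 581 TPM in the others). Of these markers, *Dcn*, *Col1a1*, *Col3a1* and *Lum* were highest in knockout 2. *Lrat*, *Reln*, *Acta2* and *Des* were highest in a floxed control, and floxed control 4 was the lowest for each marker. The part of these cells was not tested. Most of the cholangiocyte sum was *Spp1*, with 604 TPM in knockout 2 and 235 TPM in floxed control 4. *Krt19*, *Krt7*, *Epcam* and *Cldn7* were also highest in knockout 2, but *Sox9* was highest in knockout 4 (5.91 TPM). Floxed control 4 was the lowest library for *Krt7* (0.46 TPM) but not for the rest. *Gpx6* was between 0.58 and 1.02 TPM and was not tested, and *Gpx5* was listed at 0 in 7 libraries and at 0.04 TPM in knockout 4.

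Together the 39 genes made up 1.79% to 1.93% of the TPM of the control libraries and 1.92% to 2.01% of the knockout libraries. *Mgst1*, *Gpx1*, *Gstm1* and *Gstp1* held 24.8%, 23.9%, 14.1% and 11.5% of this, and of these *Gstm1* alone had groups that did not overlap. Some libraries were the extreme for many members. Floxed control 4 was the lowest of the 8 libraries for 16 of the 34 tested members (47.1%), close to its share among all genes tested (45.04%). Knockout 2 was the highest for 17 members, against 18.5% of all genes, and knockout 4 was the lowest knockout for 18 (52.9%, against 16.3% of all genes).

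**Figure D4:**
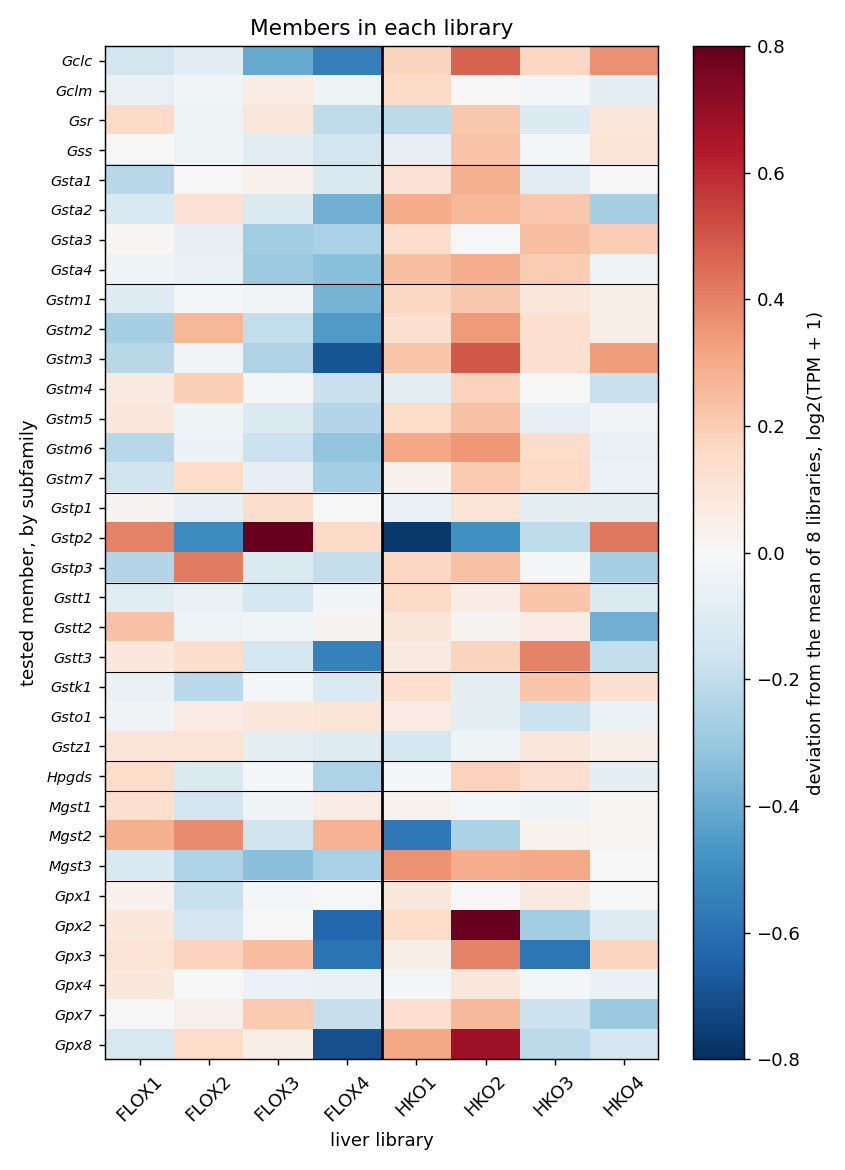
Deviation of each tested member (rows, by subfamily) from its mean over the 8 libraries (columns, floxed controls left of the line and knockouts right of it), on the log2(TPM + 1) scale; the colour scale ends at 0.8 in both directions, and *Gstp2* in floxed control 3 and *Gpx2* in knockout 2 lie beyond it. Floxed control 4 is the lowest library for 16 of the 34 members and knockout 2 the highest for 17, and the *Gstm* and *Gsta* rows are mostly below the mean in the controls and above it in the knockouts.

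Other genes that make, break down or use glutathione were taken from a list of 34, of which 31 were tested. At an unadjusted p under 0.05, 8 had higher values in the knockout (25.8% of 31, against 5.57% of all genes tested) and 1 had lower values (2.45% of all genes), and 0 passed an adjusted p of 0.05 in limma. The median log2 fold change of the list was -0.01, against 0.05 over all genes. *Chac1*, which degrades glutathione inside the cell and is a target of ATF4, stood at 3.44, 8.42, 1.95 and 4.80 TPM across floxed controls 1 to 4, against 6.97, 24.7, 20.9 and 16.3 TPM across knockouts 1 to 4 (log2 fold change 1.69 ± 0.40 SE; limma adjusted p = 0.207). Its relative *Chac2* stood at 17.6, 19.3, 17.4 and 17.3 TPM across the controls, against 21.9, 21.2, 23.5 and 23.4 TPM across the knockouts, without overlap (0.32 ± 0.09 SE; limma adjusted p = 0.302). *Ggt6*, a relative of *Ggt1*, stood at 11.2, 10.7, 8.91 and 5.88 TPM across the controls, against 12.4, 14.1, 14.9 and 12.99 TPM across the knockouts (0.55 ± 0.18 SE; limma adjusted p = 0.378). The mitochondrial glutaredoxin *Glrx5*, which serves iron-sulfur cluster assembly, was the 1 gene with lower values at an unadjusted p under 0.05. *Glrx5* stood at 42.0, 52.1, 67.4 and 68.8 TPM across the controls, against 38.1, 35.4, 39.7 and 33.9 TPM across the knockouts (-0.61 ± 0.15 SE; limma adjusted p = 0.219). The cystine importer gene *Slc7a11*, which supplies cysteine for synthesis, was between 0.22 and 0.95 TPM and was not tested.

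Of 25 known NRF2 targets and regulators outside the 39 genes, 24 were tested and 1, *Osgin1*, passed (adjusted p = 0.0300 in limma), with 177 TPM across the controls, against 368 TPM across the knockouts. The call of *Osgin1* was lost in 8 of the 18 alternatives: without a filter (adjusted p = 0.167 in limma), after median-of-ratios scaling (0.0566), with the replicate block (0.0803), and without floxed control 1, 2 or 4 or knockout 2 or 3 (0.0504 to 0.0978). Its log2 fold change of 1.03 lay between 0.92 and 1.13 in all 18. *Osgin1* was also the 1 gene of the list with an unadjusted p under 0.05. That is 4.17% of the 24 tested, against 5.57% of all genes tested with higher values and 8.02% in either direction. *Nqo1*, a widely used marker of NRF2 activity, stood at 18.5, 24.5, 15.6 and 15.2 TPM across the controls, against 18.1, 25.9, 16.6 and 13.6 TPM across the knockouts, nearly the same range. The 95% interval of its log2 fold change ran from -0.45 to 0.44. *Aox1*, *Txn1* and *Ugdh*, the next genes by p, had log2 fold changes of 0.35, 0.14 and 0.21 and overlapping groups. The median of the list was 0.03, against 0.05 over all genes tested and 0.14 over the 34 tested members.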

How the data were processed

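Liver RNA libraries (4 floxed control, 4 knockout) came from total RNA with strand-marking chemistry, per the labels' protocols. The authors deposited TPM values, scaled to each library's total and rounded to 2 decimals. RSEM 1.3.3 and the build GRCh38.p13, a human build, are named per the submitters' processing notes, although the gene identifiers are those of mouse; aligner and annotation: not given in the sources used here. Symbols matched 52083 of 55416 identifiers.

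The 12710 genes at 1 TPM or more in 4 or more libraries were compared on log2(TPM + 1) with limma 3.58.1 in R 4.3.3 (eBayes with trend, no covariate), with Benjamini-Hochberg adjustment over all genes, and checked on simulated data. The members and lists were chosen with earlier results of these data known. Full values are given for *Smpd3*, the 12 members of smallest p, the most abundant member of each subfamily, and up to 4 genes per list with *Nqo1*. Shared 50-base stretches were counted in GENCODE M21 transcripts. Grouping followed the sample titles. Alternatives were other pseudocounts, filters, scalings and weights, a replicate block, and leaving out each library.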

Additional observations from a re-analysis of the deposited data

Results flagged for a closer look

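Groups of 4 were checked for a library far from the other 3 (Dixon's test, gap to the nearest over the whole range), a check that chance passes in about 1 of 20 groups. Of 88 groups checked, 3 were marked, all in the pi class. *Gstp1* stood at 2335 TPM in knockout 2, against 2054 to 2083 TPM in the other knockouts, and with it the summed *Gstp* TPM at 2418 against 2126 to 2160. *Gstp3* stood at 81.9 TPM in floxed control 2, against 51.8 to 56.2 TPM in the other controls.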

How the results depend on the processing

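No member reached an adjusted p of 0.05 with all libraries or in any of the 18 alternatives. The count of genes called, 13, was 8 and 6 with pseudocounts of 0.1 and 5, 0 without a filter, 20 without mitochondrial and the most abundant genes, 20 with library weights, 0 with the replicate block and 0 to 16 with 1 library left out (leaving out knockout 3 gave 0, as did floxed control 1; knockout 2 gave 2, knockout 1 gave 5 and floxed control 4 gave 3). *Smpd3* kept its log2 fold change of -1.89 but not its call without a filter (adjusted p = 0.167) and with the replicate block (adjusted p = 0.0818); leaving out 1 library gave -2.06 to -1.76, and pseudocounts of 0.1 and 5 gave -2.34 and -1.07, both past the threshold. Libraries sharing a number did not deviate together (correlations -0.20 to 0.03), so the block pairs numbers only, and it left 8 of the 9 members at an unadjusted p under 0.05 (not *Gstk1*). The *Mgst* median of -0.00 was 0.24 at a mean of at least 5 TPM, where *Mgst2* is not tested.

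Members near 0 turned sign. After median-of-ratios scaling *Gclm*, *Gstp3*, *Gpx3* and *Gpx4* had log2 fold changes of -0.033, -0.0016, -0.040 and -0.055. After quantile normalization these were -0.019, -0.012, -0.060 and -0.0028, and *Mgst1* had 0.026. With library weights *Gclm* had -0.0052 and *Gpx3* -0.11, and without mitochondrial and the most abundant genes *Gpx3* had -0.0031 and *Gpx4* -0.016. With 1 library left out the ranges were -0.016 to 0.061 for *Gclm*, -0.075 to 0.066 for *Gsr*, -0.10 to 0.023 for *Gstm4*, -0.0068 to 0.21 for *Gstp3*, -0.15 to 0.014 for *Gstt2*, -0.055 to 0.027 for *Gstz1*, -0.053 to 0.043 for *Mgst1*, -0.17 to 0.22 for *Gpx3*, -0.020 to 0.038 for *Gpx4* and -0.13 to 0.056 for *Gpx7*. The cause was not tested. TPM carries no depth, so counting error is unknown.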
